A study of Mus musculus with 9 samples.

Results

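The abdominal aorta of B cell-deficient mice was compared between 2 treatments that differed by injected antibody. Mice of both groups were uMT animals on the C57BL/6 background. Both had 0.5 M CaCl2 laid around the abdominal aorta, a procedure used to produce an aneurysm, and both were sampled on day 7. The mice of 1 group were also injected intraperitoneally with mouse polyclonal IgG. The comparison takes the 3 arrays titled for CaCl2 plus IgG and the 3 titled for CaCl2, which are 6 of the 9 samples of the series. The remaining 3 arrays are sham aortas of the same genotype and strain, treated with saline around the aorta, and serve here as the untreated level and as part of the estimate of spread. The labels used here do not state the age or sex of the mice, the dose or timing of the IgG, or how many animals stand behind an array. The p-values thus rest on the spread among these samples, part or all of which may be technical.

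IgG acts on cells of the vessel wall mainly through Fc receptors. The activating receptors FcγRI, FcγRIII and FcγRIV of the mouse signal through the shared FcRγ chain, whose ITAM motif recruits the tyrosine kinase Syk, and FcγRIIB, the inhibitory receptor, opposes them. Clustered IgG also starts the classical complement cascade through C1q. The uMT mutation removes the membrane-bound μ chain that B cell precursors need, so mature B cells and most circulating antibody are missing, and injected IgG restores part of what these animals lack. The title of the series names B cells, immunoglobulins and Syk in aneurysm, and the comparison addresses what IgG adds to the response of the aorta to CaCl2.

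Levels are given as log2 signal relative to the 75th percentile of the array, so that a difference of 1 is 2-fold and a level of 0 is a bright probe. A probe was kept where either group had it well above background on each of its 3 arrays. From the 31047 kept probes the brightest was taken for each named gene, which left 16169 genes. The 5 probes on which results below turn are shown by the first 30 of their 60 bases, since the signal reports only the transcripts that hold this stretch. The first pair had the smallest p-values among the genes lower and higher with IgG. The other 3 had far lower signal on 1 array with IgG than on the other arrays of the comparison.
Wfs1, chr5:37357424-37357483 (mm9), minus strand: atctcttctgagtaccccaggacttgggaa
Myoz1, chr14:21468483-21468542 (mm9), minus strand: atgctggacaggatgccccaactgttaatc
Psap, chr10:59764825-59764884 (mm9), plus strand: gttattttggatgattagaagcacagaatg
Metrn, chr17:25931917-25931976 (mm9), minus strand: gtctattcagctgctctcacgacccatctc
Rlf, chr4:120818556-120818615 (mm9), minus strand: tagggaaagggtaggaagttcttacttgac
The positions are those in the deposited array annotation and cover the whole probe. Whether a probe lies in a coding exon or an untranslated region was not analysed here.

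All 6 samples read as aortic wall. Acta2, the smooth muscle actin, lay between 8.19 and 8.95 on them, against 9.85 to 10.03 on the sham arrays, and its 2 groups overlapped. One array stood apart. Replicate 3 with IgG lay at 7.96 on the first principal component, which held 69.1% of the variance, between sham arrays at -101 to -75.9 and the other 5 arrays at 31.3 to 67.2. On the second component it lay at -70.2 and the other 8 arrays at 0.01 to 15.96. Its 75th percentile signal was 269.5 intensity units, within the 266.7 to 301.7 of the sham arrays, against 380.6 to 495.9 on the other 5. All 6 arrays of the comparison came from slide 1 and scan 1, as did sham replicates 1 and 2, whereas sham replicate 3 came from slide 2 and scan 2. The CaCl2 arrays were all in row 1 of the slide, with replicate 1 of the IgG group, whereas its replicates 2 and 3 were in row 2. Counts over all genes and list medians are therefore given with and without replicate 3, and for single genes the value without it follows where it turned the sign or was over 1.5 times apart.

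No gene passed the test between the 2 groups. Limma called 0 of 16169 genes (0%) at an adjusted p under 0.05, and the smallest adjusted p was 1. Without replicate 3 it again called 0 of 16169 (0%), also with a smallest adjusted p of 1. At an unadjusted p under 0.05 limma counted 228 genes (1.41%) with the 3 arrays, 167 higher and 61 lower with IgG, and 228 (1.41%) without replicate 3, 134 higher and 94 lower. In the same fit, CaCl2 against sham gave 5813 called genes (36%). The 3 arrays with IgG lay wholly above the 3 CaCl2 arrays for 415 genes (2.57%) and wholly below for 396 (2.45%), 811 in all (5.02%). With replicates 1 and 2 alone, 1069 genes (6.61%) lay wholly above and 978 (6.05%) wholly below.

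The width of the estimates sets how large a difference could have been missed. The middle 90% of the differences between group means ran from -0.39 to 0.52, and from -0.36 to 0.35 without replicate 3, whereas CaCl2 minus sham ran from -1.47 to 2.10. The 95% interval of the difference lay within 1 log2 unit of 0, less than 2-fold either way, for 12669 genes (78.4%) and, without replicate 3, for 13332 (82.5%). This held for 49.5% of the dimmest 25% of genes and 91.2% of the brightest 25%. Differences of at least 2-fold were estimated for 227 genes (1.4%) and, without replicate 3, for 111 (0.686%). The median SD within a group was 0.20 for CaCl2, 0.25 for CaCl2 plus IgG and 0.13 for its replicates 1 and 2 alone.

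**Figure D1:**
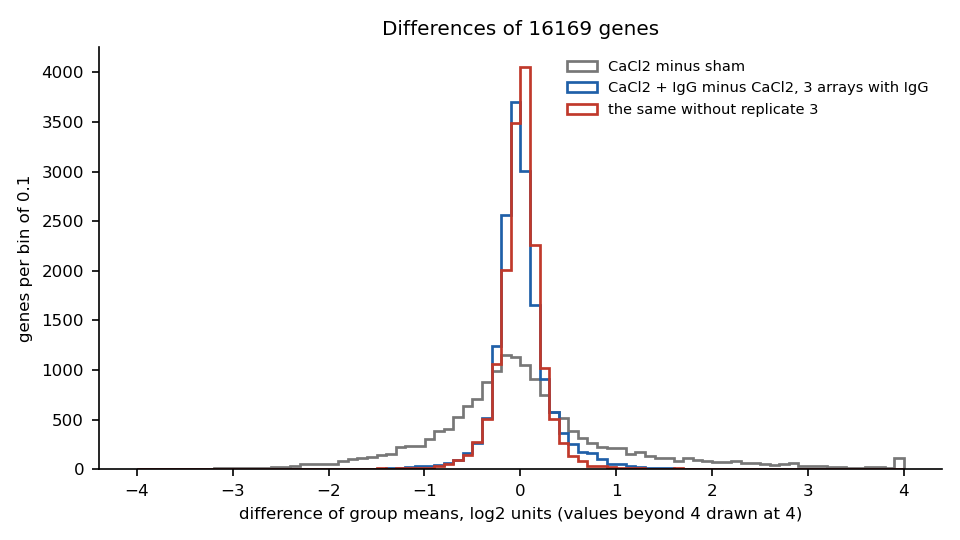
Histogram of the difference of group means of 16169 genes, in log2 units on the horizontal axis and genes per bin on the vertical. CaCl2 plus IgG minus CaCl2 is drawn with 3 arrays with IgG (blue) and without replicate 3 (red), beside CaCl2 minus sham (grey); the first pair of curves is narrow around 0 and the grey curve has wide shoulders.

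No receptor for IgG passed the test between the groups. Of 15 genes in the list of Fc receptors, 12 were measured and 0 were called in either direction. Of the 12, 0 had arrays that did not overlap, against 5.02% of all genes. The median difference was 0.01, and -0.06 without replicate 3, against -0.02 and 0.01 over all genes tested. Fcer1g, the FcRγ chain, was 5.47, 5.24 and 5.46 with CaCl2 and 5.44, 5.44 and 5.59 with IgG. The sham arrays were at 3.69, 3.86 and 2.02, so all 6 treated arrays lay above them and the 2 treated groups overlapped. The group means of Fcer1g were 5.39 ± 0.13 (SD, n = 3) and 5.49 ± 0.09 (SD, n = 3).

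The receptors themselves varied more between replicates. Fcgr4, which encodes FcγRIV, was 1.59, 0.68 and 2.28 with CaCl2 and 0.70, 2.14 and 1.63 with IgG, so that the groups spanned the same range. Fcgr1, the high-affinity receptor, was 0.70, 0.14 and 1.23 with CaCl2 and 0.24, 1.04 and 0.29 with IgG. Fcgr3, which encodes FcγRIII, differed by -0.07 ± 0.58 (SE, and -0.20 without replicate 3) and the inhibitory Fcgr2b by -0.00087 ± 0.42 (SE, and -0.12 without replicate 3). Fcgrt, the neonatal receptor that protects IgG from degradation, was 3.95, 3.90 and 3.45 with CaCl2 and 4.09, 3.73 and 3.54 with IgG, and differed by 0.02 ± 0.24 (SE, and 0.14 without replicate 3). The 95% interval of Fcgrt ran from -0.53 to 0.57, whereas that of Fcgr4 ran from -1.28 to 1.23 and leaves room for a 2-fold difference either way. In bulk tissue, fewer cells of a type and less RNA per cell cannot be told apart.

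Syk was 2.69, 2.25 and 3.03 with CaCl2 and 2.01, 2.50 and 2.59 with IgG. It differed by -0.29 ± 0.27 (SE), with a 95% interval of -0.92 to 0.33, and the groups overlapped. Without replicate 3 the difference of Syk was -0.41 ± 0.30 (SE). Of the 24 measured genes of Syk and ITAM signalling, 0 were called, 0 lay wholly above and 1 wholly below. Over all genes, 2.57% lay wholly above and 2.45% wholly below. The median difference of the list was -0.17 and, without replicate 3, -0.16. Btk, a kinase downstream of Syk, differed by -0.46 ± 0.26 (SE, and -0.24 without replicate 3) and Lyn, the Src-family kinase that phosphorylates ITAMs, by 0.08 ± 0.36 (SE, and 0.03 without replicate 3). Dok1, an adaptor that dampens receptor signalling, had the lowest difference of the list, -1.19 ± 0.71 (SE, and -0.18 without replicate 3). Its levels were 2.44, 2.38 and 2.70 with CaCl2 and 2.03, 2.62 and -0.69 with IgG, and the low array was replicate 3. Card9, which links Syk to NF-κB, had the highest difference, 0.52 ± 0.38 (SE).

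Complement genes were abundant on all treated arrays. Of 22 measured genes, 0 were called, 1 lay wholly above and 1 wholly below, against 2.57% and 2.45% of all genes. The median difference was 0.05 with and without replicate 3. C3, the central component, was 9.02, 8.88 and 9.17 with CaCl2 and 9.11, 9.05 and 8.98 with IgG, and differed by 0.02 ± 0.23 (SE, and 0.05 without replicate 3). C1qa, a chain of the C1q that binds clustered IgG, was 5.01, 4.83 and 4.68 with CaCl2 and 4.84, 4.99 and 4.72 with IgG. These C1qa values spread less than those of the sham arrays, at 3.24, 2.83 and 0.45, and the SE of 0.61 for its difference of 0.0091, which was 0.08 without replicate 3, pools all 3 groups. C5ar1, the receptor of C5a, differed by 0.06 ± 0.33 (SE, and 0.0066 without replicate 3). The gene wholly below was Itgb2, a subunit of complement receptors, at -0.49 ± 0.49 (SE), named after its values were seen. The ends of the list were C7 of the membrane attack complex, at 0.81 ± 0.55 (SE, and 0.36 without replicate 3), and Cfd, an adipocyte-derived protease of the alternative pathway, at -0.82 ± 0.80 (SE, and -0.45 without replicate 3).

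**Figure D2:**
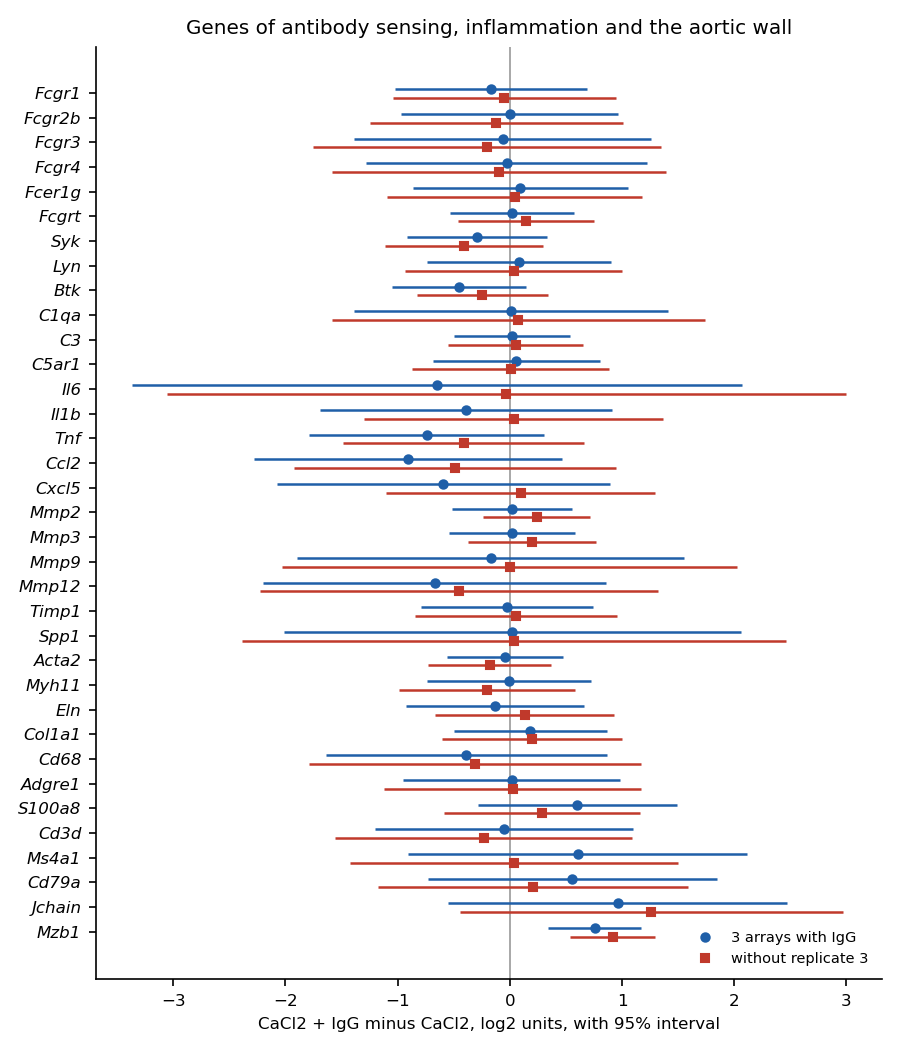
Difference between CaCl2 plus IgG and CaCl2 in log2 units (horizontal axis) for 35 genes (vertical axis), with unadjusted 95% intervals from limma. Circles use 3 arrays with IgG and squares leave out replicate 3; the intervals of every gene except Mzb1 include 0, and 0 genes were called after adjustment.

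Among genes of antibody-secreting cells, only Mzb1 had arrays that did not overlap between the groups, and it did not pass the adjustment. Mzb1, a chaperone of immunoglobulin assembly in plasma cells and marginal zone B cells, was -0.91, -1.01 and -1.38 with CaCl2 and -0.23, -0.14 and -0.67 with IgG. All 3 arrays with IgG lay above all 3 CaCl2 arrays. The sham arrays lay far lower, at -5.09, -5.08 and -5.13, where the probe was not well above background. Their near-equal values enter the SE of Mzb1, which pools all 3 groups. Its SD was 0.25 with CaCl2 and 0.28 with IgG, against medians of 0.20 and 0.25 over all genes. The difference of Mzb1 was 0.76 ± 0.18 (SE) with an adjusted p of 1 in limma, and 0.92 ± 0.16 (SE) without replicate 3, again with an adjusted p of 1. Its adjusted p ranged from 0.765 to 1 over the 22 other settings tried, and from 0.622 to 1 without replicate 3.

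Jchain, which joins polymeric IgA and IgM, was 4.69, 4.80 and 3.22 with CaCl2 and 5.58, 5.41 and 4.60 with IgG, against -1.95, 0.17 and -2.17 on the sham arrays. Both genes were thus well above their sham level in the 2 treated groups of this B cell-deficient strain. Replicates 1 and 2 with IgG lay above all CaCl2 arrays and replicate 3 lay among them, and Jchain differed by 0.96 ± 0.66 (SE), or 1.26 ± 0.74 (SE) without replicate 3. Tnfrsf17, the survival receptor BCMA of plasma cells, had the highest difference of the list, 1.07 ± 0.67 (SE), at a dim level of -4.40, -2.82 and -5.02 with CaCl2 and -2.29, -3.22 and -3.52 with IgG. Xbp1, a transcription factor of secretory cells in general, had the lowest, -0.25 ± 0.27 (SE, and -0.14 without replicate 3). Of the 12 members, all measured, 0 were called and 1 (Mzb1) lay wholly above, against 2.57% of all genes. In this list 8 differences were above 0, against 45.7% of all genes, and the median was 0.30. Without replicate 3, 10 were above 0, against 52.3% of all genes, and the median was 0.26. With single arrays left out the median ran from 0.04, without replicate 2 with IgG, to 0.43, without replicate 1. Among heavy-chain probes, the gene named Igh-VJ558 in the files, named here after its values were seen, was 3.63, 3.47 and 1.27 with CaCl2 and 4.36, 3.73 and 1.35 with IgG. Its replicate 3 was low in both groups.

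B cell genes were high on other arrays than those of antibody-secreting cells. Ms4a1, which encodes CD20, was -2.04, -1.82 and 0.16 with CaCl2 and -0.65, -1.74 and 0.50 with IgG, so that the highest arrays were replicate 3 of each group. Of 14 measured B cell genes, 0 were called and 0 had arrays that did not overlap; 13 differences were above 0, with a median of 0.34, and 7 without replicate 3, with a median of -0.02. Without CaCl2 replicate 3 the median was 0.89. Lymph node stroma genes were high on the replicate 3 arrays too: the mean of 6 measured genes was -0.92, -0.76 and 0.88 with CaCl2 and -0.76, -0.38 and 0.23 with IgG. The part of lymphoid tissue in these values was not tested.

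**Figure D3:**
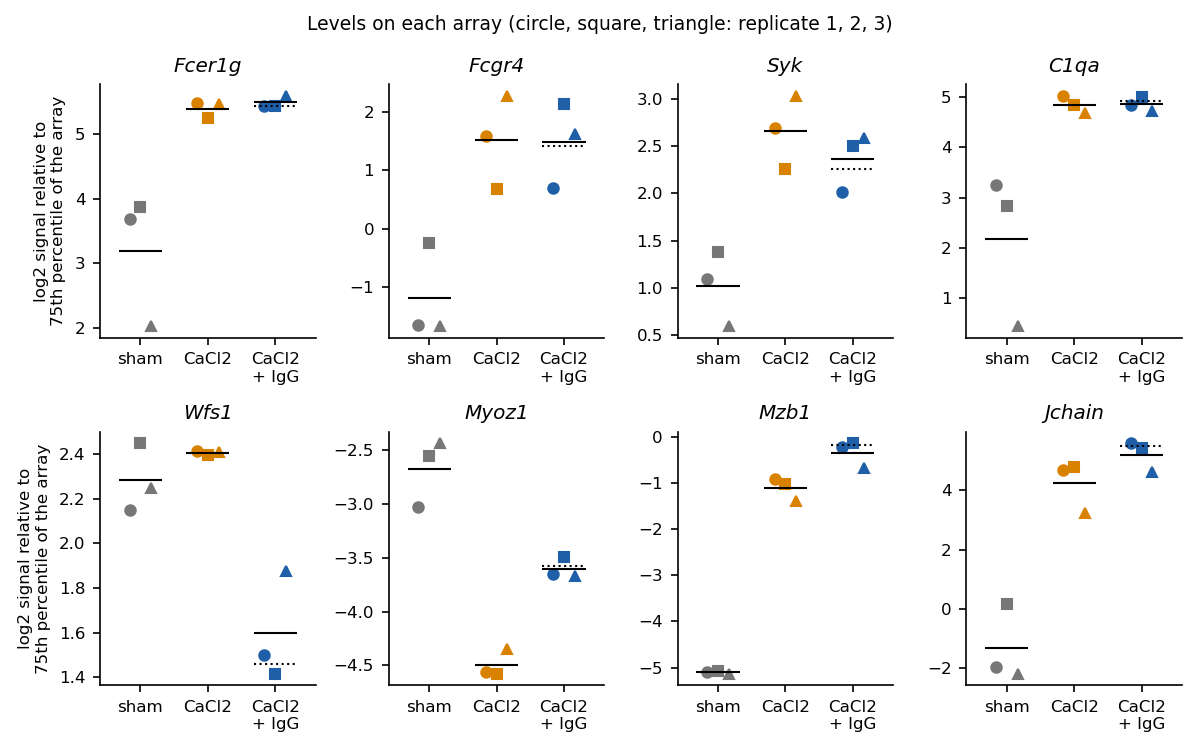
Level of 8 genes on each of 9 arrays, in log2 units relative to the 75th percentile of the array, by group (grey sham, orange CaCl2, blue CaCl2 plus IgG). Solid bars are means of 3 arrays and dotted bars the mean of replicates 1 and 2 with IgG; the groups with and without IgG overlap for Fcer1g, Fcgr4, Syk, C1qa and Jchain, and do not for Wfs1, Myoz1 and Mzb1.

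The genes with the smallest p-values were mostly dim. Wfs1, an endoplasmic reticulum membrane protein mutated in Wolfram syndrome, had the smallest p of all. It was 2.42, 2.40 and 2.41 with CaCl2 and 1.50, 1.42 and 1.88 with IgG, with sham at 2.15, 2.45 and 2.25. The difference of Wfs1 was -0.81 ± 0.15 (SE), and -0.95 ± 0.13 (SE) without replicate 3, with an adjusted p of 1 in limma both times. It was below 0 in all 22 other settings, from -1.04 to -0.72, where its adjusted p ran from 0.588 to 1.

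Of the 10 genes higher with IgG by smallest p, 9 were in the dimmest 25% of all genes tested. Myoz1, a Z-disc protein of fast skeletal muscle, was -4.56, -4.57 and -4.34 with CaCl2 and -3.65, -3.49 and -3.67 with IgG, with sham higher than both at -3.02, -2.55 and -2.43. The difference of Myoz1 was 0.89 ± 0.17 (SE), and 0.34 when the background was corrected by normexp. Rab3b, a small GTPase of secretory vesicles, was -3.30, -3.16 and -3.04 with CaCl2 and -2.33, -2.65 and -2.28 with IgG, a difference of 0.75 ± 0.16 (SE) and of 0.48 with normexp. Spin2c, of the spindlin family, differed by 0.85 ± 0.20 (SE) and by 0.44 with normexp. Prnd, the prion-like protein doppel, differed by 0.87 ± 0.21 (SE), Slc6a16 by 0.97 ± 0.24 (SE), Tm6sf2, which takes part in lipoprotein secretion, by 0.65 ± 0.16 (SE) and Gpr31c by 0.53 ± 0.14 (SE). Mpp4 and Rhox4g were well above background on 0 CaCl2 arrays and on 3 with IgG. A dim level is only a bound. On each CaCl2 array the higher of their own signal and the dimmest signal well above background was used. In the signal used here they were then at least 1.95-fold and 2.00-fold higher with IgG. Both were kept through the group where they are high. Neither bound held with normexp, where Rhox4g differed by 0.46 and Mpp4 by no more than 0.63. All 10 genes were higher with IgG in each of the other settings in which they were tested, and all 10 differences were smaller with normexp, at 0.22 to 0.63.

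Of the 10 genes lower with IgG, 7 were in the dimmest 25%. Mlana, a melanosome protein, was 0.59, 0.74 and 0.83 with CaCl2 and 0.37, -0.08 and -0.32 with IgG, with sham at 0.86, 0.82 and 0.38, and differed by -0.73 ± 0.21 (SE). Sost, the Wnt inhibitor sclerostin that the aortic wall also expresses, was -1.52, -0.01 and -1.61 with CaCl2 and -2.40, -2.22 and -3.86 with IgG. Sham aortas held more Sost, at -0.11, 0.74 and 0.64, and it differed between the treated groups by -1.78 ± 0.55 (SE), or -1.26 ± 0.48 (SE) without replicate 3. Dmxl2, a partner of the vacuolar proton pump, differed by -0.49 ± 0.15 (SE), Abtb2 by -0.51 ± 0.17 (SE) and Lrrc24 by -0.59 ± 0.19 (SE). Cplane2, a protein of cilium assembly, differed by -1.04 ± 0.29 (SE) and Cyp1a1, the monooxygenase induced through the aryl hydrocarbon receptor, by -1.01 ± 0.30 (SE). Cplane2 was well above background on 3 CaCl2 arrays and 0 with IgG, and its difference is against dim signal that allows no fold. Cyp1a1 and Lrrc24 were well above background on 1 array with IgG. Chrna7, the nicotinic receptor subunit α7, and Frem1, a basement membrane protein, were well above background on 3 CaCl2 arrays and 0 with IgG. In the signal used here this bounds them at 1.41-fold and 1.21-fold lower at least. With normexp they differed by -0.044 and -0.045, so these bounds did not hold under that correction. With normexp, Lrrc24 was 0.05 and its sign turned; the other 9 kept their sign in each setting.

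Leaving out replicate 3 brought other genes among the 10 smallest p-values of each direction. Dkk2, a Wnt antagonist, was -1.81, -1.37 and -1.53 with CaCl2 and -0.60, -0.65 and -2.06 with IgG, where replicate 3 lay below all CaCl2 arrays. Dkk2 differed by 0.94 ± 0.24 (SE) without replicate 3 and by 0.47 ± 0.39 (SE) with it. Col8a1, a short-chain collagen of injured arteries, was 1.50, 1.17 and 1.37 with CaCl2 and 1.94, 1.88 and 1.22 with IgG, a difference of 0.57 ± 0.15 (SE) without replicate 3. Ren1, which encodes renin, differed by 0.78 ± 0.19 (SE), Ccdc160 by 0.82 ± 0.16 (SE), Mup2, a major urinary protein with near-identical copies whose signals cannot be separated with certainty, by 1.55 ± 0.40 (SE) and Bpifb6 by 1.08 ± 0.29 (SE). On the lower side Rfx7 differed by -0.81 ± 0.15 (SE), Crip3 by -0.74 ± 0.17 (SE), Lgr6, a receptor for R-spondins, by -0.89 ± 0.24 (SE), Fam222a by -0.75 ± 0.19 (SE), Cga by -0.73 ± 0.18 (SE) and Spata9 by -0.71 ± 0.19 (SE). Fam222a was well above background on 3 CaCl2 arrays and 0 with IgG. In the signal used here this bounds it at 1.32-fold lower at least with all arrays. With normexp and all arrays it differed by 0.02, so this bound did not hold under that correction. Cga and Spata9 were well above background with IgG on replicate 3 alone, at -2.47 and -2.84, so that their differences without it are against dim signal, and with all arrays they were 0.21 and 0.11. With all arrays Ren1 differed by 0.36, Col8a1 by 0.34, Crip3 by -0.45 and Bpifb6 by 1.66. The second kept probe of Rfx7 differed by 0.15 with all arrays, against -0.54 for the first, and that of Lgr6 by -0.0087, against -0.52. Each of them had an adjusted p of 1 in limma. Mzb1, Myoz1, Spin2c and Rab3b stood among the 10 higher genes of both fits, and Wfs1, Dmxl2 and Cplane2 among the 10 lower.

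No marker of infiltrating cells passed the test between the groups. Of 18 measured monocyte and macrophage genes, 0 were called, 0 lay wholly above and 1 wholly below, against 2.57% and 2.45% of all genes. The median difference was -0.06, or 0.02 without replicate 3. The gene wholly below was Mpeg1, a pore-forming protein of macrophages, at -0.23 ± 0.46 (SE), named after its values were seen. Adgre1, the macrophage antigen F4/80, was 3.27, 2.99 and 3.03 with CaCl2 and 3.04, 3.20 and 3.09 with IgG, against 1.53, 1.21 and -0.37 on the sham arrays. Cd68, a lysosomal protein of macrophages, was 5.53, 5.36 and 5.47 with CaCl2 and 5.63, 4.67 and 4.91 with IgG, and the groups overlapped. At the ends of the list, Cd163, a haemoglobin scavenger receptor, differed by 0.94 ± 0.73 (SE) and Gpnmb by -0.70 ± 0.53 (SE, and -0.31 without replicate 3).

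Activation genes of macrophages had a median difference of -0.18 over 19 measured genes, and -0.13 without replicate 3. Of the 19, 0 were called and 1 lay wholly below, against 2.45% of all genes. That gene, Nos2, the inducible nitric oxide synthase, named after its values were seen, was 0.46, 0.45 and 1.23 with CaCl2 and -0.19, 0.28 and -0.84 with IgG, a difference of -0.97 ± 0.35 (SE) with an adjusted p of 1 in limma. Marco, a scavenger receptor, differed by 1.14 ± 0.67 (SE) and was high on a single array, replicate 2 with IgG, at -0.73 against -3.96 to -2.89 on the other 5. Retnla, a product of alternatively activated macrophages, differed by -1.18 ± 0.73 (SE). Neutrophil genes had a median difference of 0.17 over 15 genes, and -0.07 without replicate 3; S100a8, a subunit of calprotectin, was 0.47, 0.97 and 1.35 with CaCl2 and 1.101, 1.33 and 2.17 with IgG, and differed by 0.60 ± 0.39 (SE, and 0.28 without replicate 3). Mmp8, the neutrophil collagenase, had the highest difference of that list at 0.81 ± 0.37 (SE), and Ltf, lactoferrin, the lowest at -0.24 ± 0.52 (SE). T and NK cell genes had a median of -0.06 over 23 genes, and -0.18 without replicate 3, and Cd3d, of the T cell receptor complex, was 0.82, 1.02 and 1.68 with CaCl2 and 0.62, 1.26 and 1.47 with IgG. In neither list was a gene called, and of the 23 T and NK genes and the 15 neutrophil genes 0 had arrays that did not overlap. Mast cell genes, 7 measured, had a median of 0.16, and 0.40 without replicate 3, with 0 called and 0 wholly above or below. MHC class II and dendritic cell genes, 15 measured, had a median of -0.33, and -0.36 without replicate 3, with 0 called. Of the 15, 1 lay wholly below, against 2.45% of all genes. It was H2-DMa at -0.51 ± 0.60 (SE), named after its values were seen.

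Interferon-driven genes were uneven within the CaCl2 group. The mean of 21 type I interferon-stimulated genes was 0.84, 0.52 and 2.39 with CaCl2 and 0.58, 1.33 and 0.16 with IgG. CaCl2 replicate 3 was thus the highest of the 6 and replicate 3 with IgG the lowest. All 21 differences were below 0 with a median of -0.54, and -0.29 without replicate 3 with IgG, and 0 genes were called; without CaCl2 replicate 3 the median was 0.01 and 13 of 21 differences were above 0. Isg15, a ubiquitin-like antiviral protein, was 3.32, 2.40 and 5.17 with CaCl2 and 2.93, 3.84 and 1.06 with IgG, a difference of -1.02 ± 0.80 (SE, and -0.25 without replicate 3). The 15 measured genes inducible by interferon-gamma had means of 1.58, 1.65 and 3.27 with CaCl2 and 1.65, 1.70 and 1.37 with IgG. Their median difference was -0.61, and -0.49 without replicate 3 with IgG and -0.0071 without CaCl2 replicate 3. Tgtp1, a GTPase of this group, had the lowest difference, -1.46 ± 0.63 (SE, and -0.67 without replicate 3), and Gbp5 the highest, 0.55 ± 0.44 (SE, and -0.06 without replicate 3). The second kept probe of Gbp5 differed the other way, by -0.64.

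Chemokines followed the same array. Cxcl9, a ligand of CXCR3 induced by interferon-gamma, was 0.19, -1.18 and 3.85 with CaCl2 and -2.29, 0.09 and -1.81 with IgG. It had the lowest difference of 22 measured chemokines, -2.29 ± 1.44 (SE), and CaCl2 replicate 3 alone lay above the other 5 arrays. The median of the list was -0.32, and -0.00085 without CaCl2 replicate 3 and -0.0048 without replicate 3 with IgG. Ccl2, the main monocyte attractant, was 2.99, 2.70 and 4.30 with CaCl2 and 2.92, 2.76 and 1.58 with IgG, and differed by -0.91 ± 0.60 (SE, and -0.49 without replicate 3). Cxcl5, a neutrophil attractant, differed by -0.60 ± 0.65 (SE, and 0.10 without replicate 3). Of the chemokines 0 were called and 0 had arrays that did not overlap.

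The best known cytokines of aneurysm tissue varied widely between replicates. Il6 was 2.23, -1.91 and 3.04 with CaCl2 and 0.71, 1.47 and -0.76 with IgG, with a SE of 1.19 on a difference of -0.65, which was -0.03 without replicate 3. Il1b was 2.23, 0.90 and 3.05 with CaCl2 and 1.68, 2.51 and 0.83 with IgG, and differed by -0.39 ± 0.57 (SE, and 0.03 without replicate 3). Tnf differed by -0.74 ± 0.46 (SE, and -0.41 without replicate 3). For Il6 the 95% interval ran from -3.37 to 2.07, which leaves room for a 4-fold difference either way. The median of 15 measured cytokines was -0.16, or -0.01 without replicate 3. Of them 0 were called, 1 lay wholly above and 1 wholly below, against 2.57% and 2.45% of all genes. These 2 genes were also the ends of the list, Lif at 0.99 ± 0.90 (SE) and Csf2, the growth factor GM-CSF, at -0.86 ± 0.34 (SE).

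Of the matrix proteinases, Mmp2 and Mmp3 were measured more precisely than the cytokines named above. The 95% interval lay within 1 log2 unit for 14 of 21 proteinases and inhibitors and 7 of 12 cathepsin and plasminogen genes. The share over all genes was 78.4%. Without replicate 3 the counts were 14 and 9, against 82.5% of all genes. Mmp2, gelatinase A, was 5.32, 4.81 and 5.04 with CaCl2 and 5.47, 5.13 and 4.63 with IgG, and differed by 0.02 ± 0.23 (SE, and 0.24 without replicate 3). Its 95% interval ran from -0.52 to 0.55, within 2-fold either way. Mmp9, gelatinase B, differed by -0.17 ± 0.76 (SE, and -0.0013 without replicate 3), Mmp3, stromelysin, by 0.02 ± 0.25 (SE, and 0.20 without replicate 3) and Mmp12, macrophage elastase, by -0.67 ± 0.67 (SE). Timp1, an inhibitor of these enzymes, was 6.22, 5.68 and 7.16 with CaCl2 and 6.15, 6.66 and 6.16 with IgG. Of 21 measured proteinases and inhibitors 0 were called, 1 lay wholly above and 1 wholly below, against 2.57% and 2.45% of all genes. Their median was -0.11, and -0.02 without replicate 3. Of 12 cathepsin and plasminogen genes 0 were called and 1 lay wholly below, with a median of -0.13, and -0.02 without replicate 3; Plaur, the urokinase receptor, was lowest at -0.67 ± 0.37 (SE, and -0.40 without replicate 3) and Cst3, the cathepsin inhibitor cystatin C, highest at 0.23 ± 0.21 (SE, and 0.14 without replicate 3).

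Structural genes of the wall mostly had narrow intervals with all arrays. Col1a1, of fibrillar collagen I, was 7.38, 7.19 and 7.40 with CaCl2 and 7.60, 7.43 and 7.48 with IgG. Its arrays did not overlap, yet the difference was 0.18 ± 0.30 (SE), an SE that pools the spread of all 3 groups, sham included. Eln, elastin, differed by -0.13 ± 0.35 (SE, and 0.13 without replicate 3), Myh11, smooth muscle myosin, by -0.0083 ± 0.32 (SE, and -0.21 without replicate 3) and Acta2 by -0.04 ± 0.23 (SE, and -0.18 without replicate 3). The 95% interval stayed within 1 log2 unit for 16 of 19 collagen and fibrillar matrix genes and 16 of 18 elastic fibre genes. It did so for 14 of 15 smooth muscle genes and 13 of 14 endothelial genes. The share over all genes was 78.4%. Without replicate 3 the counts of the 4 lists were 15, 16, 12 and 9, against 82.5% of all genes. The medians of these lists were 0.02, -0.11, -0.0083 and -0.01, and without replicate 3 0.07, 0.15, -0.14 and 0.21, so that the signs of the elastic fibre and endothelial lists turned. Differences above 0 went from 6 to 13 of 18 elastic fibre genes, from 6 to 12 of 14 endothelial genes and from 7 to 1 of 15 smooth muscle genes. Of the genes in these 4 lists 0 were called in either fit. Thbs4, a matricellular protein, had the lowest difference among the collagen list, -0.94 ± 0.53 (SE). Dpt, a dermal matrix protein of fibroblasts, was lowest among the 13 fibroblast genes at -1.20 ± 0.97 (SE), and was 0.18 without replicate 3. Spp1, osteopontin, was 5.49, 4.80 and 6.25 with CaCl2 and 5.86, 5.25 and 5.50 with IgG, and Bglap, osteocalcin, differed by 1.46 ± 0.81 (SE) among 17 osteochondrogenic genes, 0 of them called, with a median of -0.08, and 0.03 without replicate 3.

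Genes of fat and blood varied between arrays within both groups, and 0 of them were called. The mean of 12 white fat genes was 1.01, 2.29 and 1.101 with CaCl2 and 0.54, 1.66 and 0.26 with IgG, highest on CaCl2 replicate 2. All 12 differences were below 0 in both fits, with a median of -0.78, which was -0.35 without replicate 3 with IgG and, with other single arrays left out, ran from -1.15 to -0.16, the latter without CaCl2 replicate 2. Plin1, which coats fat droplets, had the lowest difference, -1.16 ± 0.76 (SE, and -0.71 without replicate 3). Red blood cell genes averaged 4.64 on replicate 1 with IgG and 0.49 to 1.93 on the other 5 arrays. Hbb-bt, a β-globin gene with near-identical copies, was 4.95, 3.19 and 3.17 with CaCl2 and 7.88, 3.44 and 4.40 with IgG. The median difference of the 4 genes was 1.24, and 1.74 without replicate 3 with IgG and 0.14 without replicate 1 with IgG. The part of fat or blood in the values of other genes was not tested.

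Immediate early genes, which respond within minutes to growth factors and stress, divided the arrays across both groups. Fos was 6.31, 3.06 and 6.16 with CaCl2 and 6.27, 5.73 and 2.37 with IgG, with sham at 2.26, 0.25 and 0.43. Fosb, its relative, showed the same arrays low: 5.30, 0.80 and 5.69 with CaCl2 and 5.01, 4.43 and 0.43 with IgG. CaCl2 replicate 2 and IgG replicate 3 were thus the low arrays for both genes and the other 4 were high. Of 17 genes 0 were called; the median difference was -0.41, and 0.30 without replicate 3 with IgG, and -0.92 without CaCl2 replicate 2. Nr4a1, an orphan nuclear receptor, had the lowest difference, -0.997 ± 1.03 (SE), and was 0.35 without replicate 3.

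The 16 oxidative phosphorylation genes had a median of -0.04, and 0.04 without replicate 3. That of the 16 ribosomal protein genes was 0.11, and 0.06 without replicate 3. The 95% interval of all 32 lay within 1 log2 unit, against 78.4% of all genes. Cell cycle genes, 19 measured, had a median of -0.12 in both fits, with Top2a, a topoisomerase of dividing cells, at -0.29 ± 0.69 (SE). Cholesterol synthesis and uptake genes, 16 measured, had a median of -0.31, and -0.18 without replicate 3; Fdps, an enzyme of the mevalonate pathway, was at -1.05 ± 0.65 (SE) and -0.16 without replicate 3. Hypoxia and glycolysis genes had a median of -0.17, and -0.08 without replicate 3, and circadian clock genes one of -0.09, and 0.13 without it. Of these lists 0 genes were called. Brown fat genes had a median of 0.11 over 7 measured genes, and -0.25 without replicate 3, with Cidea at -0.72 ± 0.32 (SE). Skeletal muscle genes had a median of 0.000098 over 11, and -0.04 without replicate 3.

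**Figure D4:**
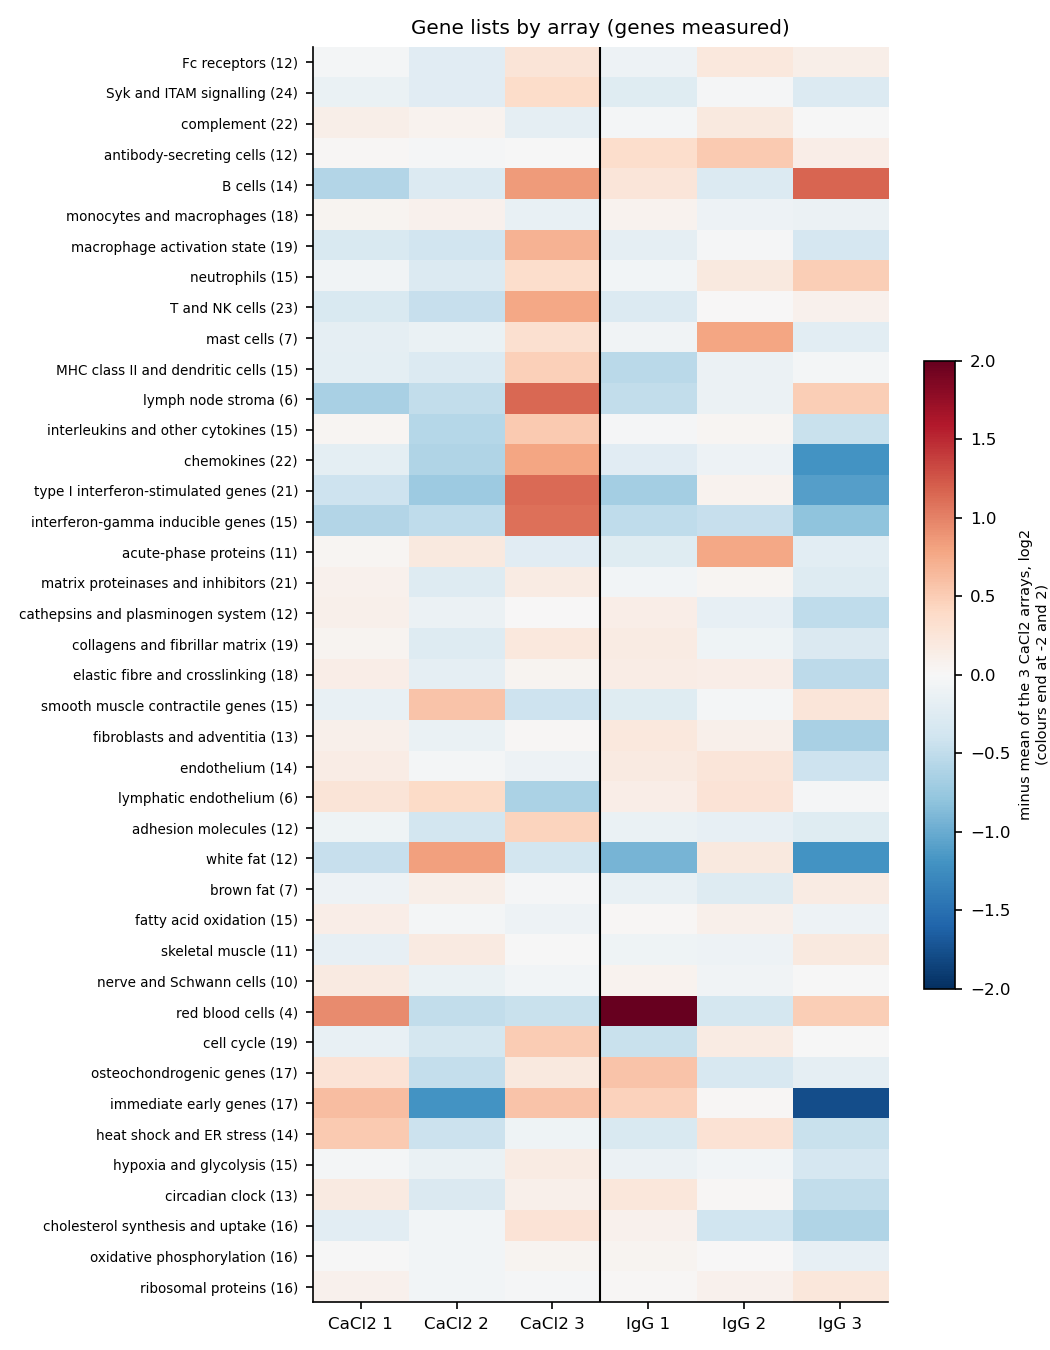
Mean level of the measured genes of 41 lists (rows, number of genes in brackets) on the 6 arrays (columns), in log2 units minus the mean of the 3 CaCl2 arrays; red is higher and blue lower. Interferon and chemokine lists are red on CaCl2 replicate 3, red blood cells on IgG replicate 1, and immediate early genes are blue on CaCl2 replicate 2 and IgG replicate 3.

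Replicate 3 with IgG differed from the other arrays gene by gene. It lay more than 1 log2 unit above all 5 other arrays for 750 genes (4.64%) and below them for 314 (1.94%). The corresponding counts on each of the other 5 arrays were 4 to 134 above and 4 to 59 below. Of the 750 genes, 709 (94.5%) reached the range of the sham arrays or passed it, and of the 314 genes 254 (80.9%) did. Genes chosen as high or low on this array also pass where sham and CaCl2 levels are alike. These shares thus follow in part from the choice and are not a test. The 750 genes were dim on the CaCl2 arrays, with a median level of -3.45 against 0.43 over all genes, whereas the 314 genes had a median of 0.21. The 75th percentile signal of this array was also low, as given above. Its median signal, 33.6 intensity units, lay within the 29.6 to 38.0 of the CaCl2 arrays. The part of signal level and scaling in these values was not tested.

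Genes called between CaCl2 and sham with at least a 4-fold difference place the arrays with IgG between sham (0%) and CaCl2 (100%). Over the 865 genes higher with CaCl2, the median place was 95.1% on replicate 1, 99.8% on replicate 2 and 89.4% on replicate 3. Over the 276 genes lower with CaCl2, it was 104% and 95.4% on replicates 1 and 2, and 43.9% on replicate 3. On replicate 3, 106 of these 276 genes (38.4%) lay in the sham range or beyond it, 90 (32.6%) in the CaCl2 range or beyond and 80 between. Of the 865 genes, 51 (5.9%) lay in the sham range or beyond on replicate 3, 502 (58%) in the CaCl2 range or beyond and 312 between. On replicate 1, 0 of the 276 lay in the sham range, and on replicate 2, 5 did. Since the CaCl2 and sham means that set the scale also chose the genes, these places describe the arrays and are not a test.

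**Figure D5:**
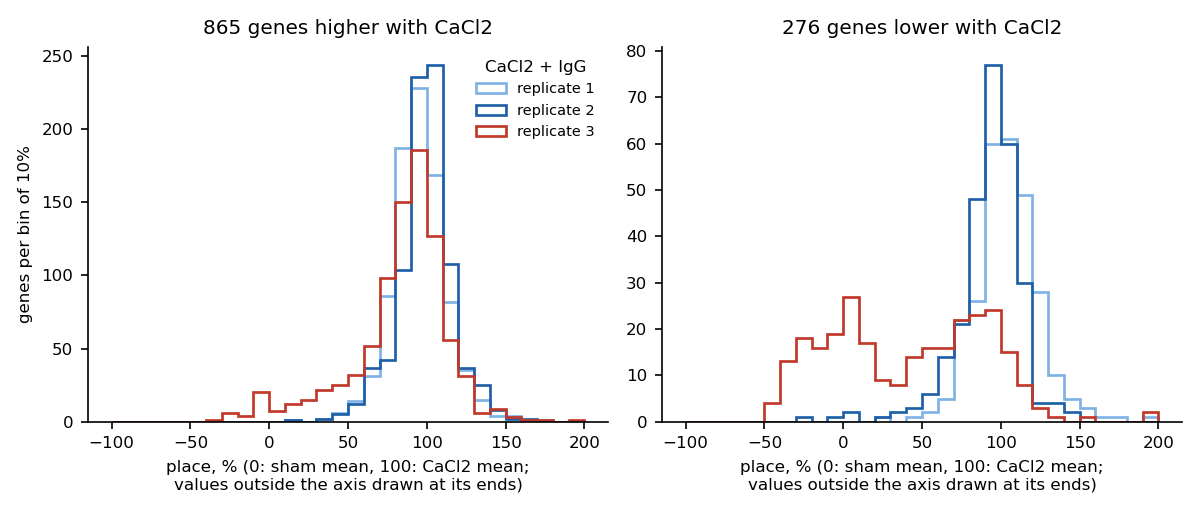
Place of each array with IgG between the sham mean (0%) and the CaCl2 mean (100%), as genes per bin of 10%, for 865 genes higher (left) and 276 lower (right) with CaCl2 by at least 4-fold. Replicates 1 and 2 peak near 100% in both panels; replicate 3 has a second group of genes near 0% on the right.

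Psap, the precursor of the saposins that activate lysosomal lipid hydrolases, had the largest gap below. It was 5.55, 5.68 and 5.81 with CaCl2, 5.60 and 5.44 on replicates 1 and 2 with IgG, and 0.60 on replicate 3, within the sham values of 0.42, 1.19 and 0.84. Cd82, a tetraspanin, was 4.67, 4.73 and 5.01 with CaCl2, 5.05 and 4.70 on replicates 1 and 2, and 0.69 on replicate 3, and its other kept probes showed the same gap. Metrn, a neurotrophic factor, was at -3.76 on replicate 3 against 0.52 to 0.99 on the other 5 arrays. Its sham arrays lay at -3.24, -2.72 and -3.10, above replicate 3. Rlf, a zinc finger protein, was at -3.03 on replicate 3 against 1.02 to 1.41 on the other 5. Cxcl2, a neutrophil attractant, was at -6.36 on replicate 3, like the sham arrays at -6.40 to -6.20, and H1f0, a linker histone, at -6.53. Not every gene with such a gap was sham-like: Defb26 was at -4.57 on replicate 3 and Krtap12-1 at -4.93, Tcp11 at -4.76, while their sham arrays lay at -0.28 to 0.27, -0.78 to -0.15 and -1.70 to -0.10. Lhfpl5, with -6.49 on replicate 3, varied from -6.52 to -0.90 over the sham arrays themselves.

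Among genes above the other arrays, Adra1b, the α1B adrenergic receptor, was 2.67 on replicate 3 against -0.70 to -0.05 on the other 5 and 2.47 to 3.26 on the sham arrays. Its second kept probe showed a smaller gap in the same direction, at 0.93 against -0.20 to 0.11. Otog, an inner ear glycoprotein, was at 0.84 and Tmc1, a mechanotransduction channel of hair cells, at -0.82. The antisense gene Fam219aos was at 0.57, Redrum at -0.89, Saxo1 at -1.41, and the olfactory receptors Olfr481 and Olfr392 at -0.92 and -1.37. Tbrg4, a mitochondrial RNA-binding protein, was at 0.11 on replicate 3 and between -3.09 and -2.57 on all 8 other arrays, the sham arrays included. Without replicate 3 the differences of these 9 genes were between -0.41 and 0.51.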

How the data were processed

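Total RNA of abdominal aorta was hybridised to 9 arrays, 1 a sample, of the Agilent mouse 8x60K design in 1 colour. The deposited scanner files hold spot intensity on a linear scale, made with Feature Extraction 10.7.1.1 per the file headers, while the submitters' processing notes name version 9.5.1.1. The authors' deposited values for the whole series are intensity values, sorted alike in all 9 columns, so they had been quantile normalized; they served as an alternative. The labels name 2 RNA purification kits without saying which applied.

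The deposited processed signal was put on the log2 scale, less the 75th percentile of that array over its gene probes; control and outlier spots were left out, 0 spots were saturated, and spots of a probe were averaged. Of 55681 probes, 27235 were named through their accession, 3581 through a symbol and 565 through a synonym among the RefSeq genes of GRCm38.p6; 1580 kept the name in the files and 22720 had none. Probe positions are mm9, as in the files. Where a gene had several kept probes, the brightest represented it; of 26 named genes with several, the probes of 6 differed in sign.

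Limma 3.58.1 in R 4.3.3 (lmFit, eBayes) fitted the 9 arrays with 3 groups and no covariate. Adjusted p-values are Benjamini-Hochberg values across the 16169 genes, with a threshold of 0.05. SE and 95% intervals come from the fit, pool the spread of all 3 groups, and are unadjusted. The fit was checked on simulated data drawn with the spread of the sham and CaCl2 arrays. These held no array standing apart like replicate 3 with IgG. All 3 arrays a group were used, and again all but replicate 3 with IgG. No gene list was tested; each is described by counts and medians, with sham kept in the fit. Named genes were the 10 of smallest p in each direction and fit, since no gene was called, without clone names and names not matched there; the 10 largest gaps above and below the other 5 arrays on replicate 3; a fixed set of 35; and the ends of each list with at least 3 measured genes. A few genes that met this rule are not reported here. The comparison, the gene lists and the rule were chosen with earlier results of these data known. Their number, 3 arrays a group, limits the precision.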

Additional observations from a re-analysis of the deposited data

How the results depend on the processing

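Both counts of called genes, 0 with the 3 arrays with IgG and 0 without replicate 3, were recomputed under other scaling, background correction, filters, probe summaries, sample sets, array weights and blocks, with each array left out in turn. Limma called 0 genes in each of these settings except 1: without replicate 1 with IgG it called 2, both higher, namely 1700029F12Rik and Olfr701, named here after their values were seen. Leaving out 1 array gave 0 to 2 called genes with all arrays and 0 to 0 without replicate 3. Olfr701 was -4.76, -4.98 and -4.68 with CaCl2 and -4.50, -2.66 and -2.36 with IgG, and 1700029F12Rik was -4.95, -5.00 and -5.15 and then -4.75, -2.61 and -2.73; in sham aortas both lay at -3.72 to -3.08. The cause was not tested. At an unadjusted p under 0.05, limma counted 158 genes (scaling by the median) to 757 (no filter on dim probes) with all arrays and 169 to 658 without replicate 3.

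With the replicate number as a block 0 genes were called (287 at an unadjusted p under 0.05), and 0 without replicate 3 (237). The labels do not say that the numbers pair the samples. Same-numbered deviations correlated at 0.136, -0.18 and -0.024, and CaCl2 replicate 1 correlated more with replicate 2 of the other group, at 0.154. Deviations from a mean of 3 arrays cannot decide whether the samples were paired. Row 1 of the slide alone, replicate 1 with IgG against 3 CaCl2 arrays, where the lone array is assumed to vary like the others, gave 0 genes (411), and the row as a block 0 (271). With the row as a block, Fcgr3 differed by -1, C1qa by -0.86, Fcgr2b by -0.76, Syk by -0.69 and Fcer1g by -0.52. Others rose, C3 to 0.31 and Col1a1 to 0.53. Since all CaCl2 arrays were in row 1, row and IgG cannot be fully told apart. Scaling by the median moved the median difference of all genes from -0.02 to -0.25. Without replicate 3 it was 0.01 and 0.00048. Of the genes named by smallest p, 10 of 10 higher and 9 of 10 lower kept their sign in every setting, all but Lrrc24, and without replicate 3 all 10 of each did. The values of dim genes shrank most with normexp. The medians of lists without single arrays were added after seeing the data.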
